A study of Mus musculus with 6 samples.

Results

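DNA methylation enzymes write, maintain and remove methyl marks on cytosine, mostly at CG dinucleotides. DNMT1 copies the marks onto the new strand after replication, and DNMT3A and DNMT3B place new ones. The TET enzymes TET1, TET2 and TET3 oxidise methylcytosine, and the glycosylase TDG cuts out the oxidised products so that base excision repair can restore plain cytosine. Loss of Dnmt3a or Tet2 in blood stem cells is known to favour self-renewal, and DNMT3A, TET2 and ASXL1 are the genes most often mutated in clonal haematopoiesis of older people. ASXL1 is not a methylation enzyme but a chromatin protein that works with the deubiquitinase BAP1 and with Polycomb proteins. These 8 genes were taken by symbol from the deposited count table of 50763 gene symbols, and all 8 were found there.

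The cells were CD34- KSL cells of mouse bone marrow. KSL stands for c-Kit+, Sca-1+ and negative for lineage markers, a sort that enriches long-term haematopoietic stem cells. All mice carried Tal1-tTA+, an activator that doxycycline switches off and that is driven in the Tal1-expressing blood stem and progenitor cells, together with its target transgene TRE-EGFR-tr+. The 3 EGFR-DN libraries came from mice without doxycycline, which made a receptor lacking its cytoplasmic tyrosine kinase domain beside the wild-type one. The 3 EGFR-WT libraries came from mice given doxycycline at 0.2 g/L in the drinking water, which made the wild-type receptor only, so drug and receptor form cannot be told apart. Age, sex and the number of mice pooled per library were not given in the sources used here, nor whether replicates were separate mice, so p-values measure only the spread between these libraries.

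Total counts were 24073133 to 36032428 per library, and 3 counts corresponded to 0.0833 to 0.125 CPM, the count scaled to library size. For Egfr the EGFR-DN libraries held 991 to 4758 counts and the EGFR-WT libraries 6 each, the direction of the labels. In EGFR-WT the transcript was thus near the floor (0.160 to 0.237 CPM), and the receptor protein was not measured. Transcripts of the sorting genes Kit (736 to 1962 CPM) and Ly6a (Sca-1, 46.7 to 78.4 CPM) were present throughout, but so was that of Cd34, at 318 to 569 CPM, although the cells were sorted for lacking the CD34 protein. EGFR-DN replicate 3 stood apart: 8 rRNA-like genes took 25.4% of its counts against 4.71% to 6.15% in the other 5 libraries. The log2 fold changes of the 8 genes, and those printed for other genes, are therefore given with and without it. These are bulk samples, so a different make-up of the sorted cells and a different amount of RNA per cell cannot be told apart.

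The TET promoters are shown because the 3 TET genes had the largest log2 fold changes of the 8 genes when all 6 libraries were used. Each sequence runs from 250 bases before to 50 bases after a RefSeq transcription start of build GRCm38.p6, 5′ to 3′ on the strand of the gene, and capitals mark each CG, the target of these enzymes. The Tet1 window lies at chr10:62887275-62887574, the Tet2 window at chr3:133544341-133544640 and the Tet3 window at chr6:83441629-83441928, all on the minus strand.
Tet1: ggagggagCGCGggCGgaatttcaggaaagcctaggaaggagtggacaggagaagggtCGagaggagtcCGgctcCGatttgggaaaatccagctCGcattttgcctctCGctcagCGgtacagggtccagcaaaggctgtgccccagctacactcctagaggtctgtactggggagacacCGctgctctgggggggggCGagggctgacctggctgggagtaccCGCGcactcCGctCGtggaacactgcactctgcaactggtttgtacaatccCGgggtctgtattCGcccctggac
Tet2: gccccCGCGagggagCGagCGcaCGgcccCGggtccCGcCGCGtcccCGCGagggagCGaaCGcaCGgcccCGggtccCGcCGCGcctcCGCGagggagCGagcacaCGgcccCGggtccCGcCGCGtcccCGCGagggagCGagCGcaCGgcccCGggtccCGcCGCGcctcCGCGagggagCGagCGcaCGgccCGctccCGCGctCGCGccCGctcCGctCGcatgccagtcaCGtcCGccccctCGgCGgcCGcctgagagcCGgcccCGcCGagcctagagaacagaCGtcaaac
Tet3: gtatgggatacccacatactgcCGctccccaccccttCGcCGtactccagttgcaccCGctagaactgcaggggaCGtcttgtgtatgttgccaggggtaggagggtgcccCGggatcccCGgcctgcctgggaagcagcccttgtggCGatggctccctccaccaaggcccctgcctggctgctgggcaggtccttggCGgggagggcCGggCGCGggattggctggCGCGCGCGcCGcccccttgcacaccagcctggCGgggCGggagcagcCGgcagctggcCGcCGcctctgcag

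The searched motif CG reads the same on both strands. It occurred 17 times in the Tet1 window, 57 times in that of Tet2 and 22 times in that of Tet3. Over all 32851 such windows 94.6% held at least 1 CG and the median was 7. The Tet2 window had more CG than 99.8% of them. All 8 genes matched the promoter table, with 12 start sites between them. Dnmt3a had 46, 47 and 18 CG at its 3 listed starts and Dnmt1 had 2, 12 and 33, whereas Dnmt3b had 30, Tdg 26 and Asxl1 13. The count table gives 1 value per gene, so use of the separate starts of Dnmt1 and Dnmt3a was not measured.

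All 8 genes were well covered, with 720 counts (Tet2 in EGFR-WT replicate 3) to 10692 counts (Dnmt1 in EGFR-DN replicate 1). Levels of different genes were compared as CPM per kilobase of the longest transcript in GENCODE vM21. In the EGFR-WT libraries Dnmt1 was by far the most abundant, at 43.5 ± 5.27 CPM per kilobase (mean ± SD, n = 3 here and below), above 88.3% of tested genes. Tdg (13.02 ± 0.690), Asxl1 (12.4 ± 0.699) and Dnmt3b (12.2 ± 0.640) followed, and their library values overlapped. Dnmt3a was at 9.80 ± 0.381 CPM per kilobase, below Dnmt3b in each library. That order depends on transcript length: Dnmt3a had 1.81 ± 0.127 times as many counts as Dnmt3b, but 0.807 ± 0.0567 times as many per kilobase, and its annotated transcripts range from 2328 to 9685 bases. The TET genes were lower, with Tet3 at 6.48 ± 0.434, Tet1 at 3.88 ± 0.537 and Tet2 at 3.26 ± 0.148 CPM per kilobase, and the ranges of Tet1 and Tet2 overlapped.

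The comparison asks whether transcripts differ when the truncated receptor is made. None of the 8 genes changed between EGFR-DN and EGFR-WT by the quasi-likelihood test of edgeR (two-sided, Benjamini-Hochberg adjustment over 19313 genes tested, threshold 0.05). Among all genes tested, 0.00518% passed, which was Egfr alone. All 8 genes passed the filter on low counts. No member had an unadjusted p under 0.05, where 6.69% of all tested genes did. DESeq2 called none of the 8 either, where 0.432% of genes passed, with an unadjusted p under 0.05 for the 3 TET genes and for 8.2% of the genes it gave an adjusted p. Without EGFR-DN replicate 3 DESeq2 called 4.96% of genes and again none of the 8. The median log2 fold change (EGFR-DN minus EGFR-WT) of the 8 genes was 0.38, beside 0.01 over all tested genes, and without EGFR-DN replicate 3 it was 0.17 beside −0.01.

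**Figure D1:**
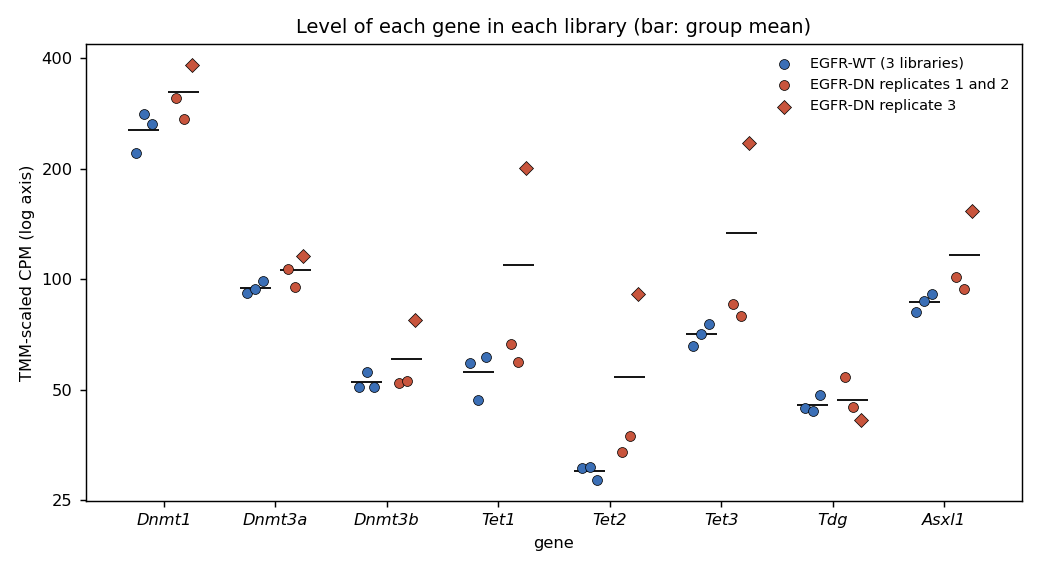
TMM-scaled CPM (log axis) of the 8 genes in each library; blue circles are EGFR-WT, red circles EGFR-DN replicates 1 and 2, red diamonds EGFR-DN replicate 3, and bars group means (n = 3). The diamond stands far above the other points for Tet1, Tet2 and Tet3 and below them for Tdg.

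Among the methyltransferases, the maintenance enzyme gene Dnmt1 was at 312, 273 and 384 CPM in EGFR-DN replicates 1 to 3 and at 221, 281 and 264 CPM in EGFR-WT replicates 1 to 3. EGFR-DN replicate 2 lay inside the EGFR-WT range, so the groups overlapped. Its log2 fold change was 0.34 (SE 0.20, edgeR adjusted p = 0.690), and 0.19 (SE 0.11) without EGFR-DN replicate 3.

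The de novo enzyme gene Dnmt3a was at 107, 95.1 and 115.9 CPM in EGFR-DN and 91.8, 93.9 and 98.9 CPM in EGFR-WT. The groups overlapped through EGFR-DN replicate 2. The log2 fold change was 0.16 (SE 0.14, edgeR adjusted p = 0.719), with an unadjusted 95% interval from −0.18 to 0.50, and 0.09 (SE 0.07) without EGFR-DN replicate 3. Its relative Dnmt3b was at 52.1, 52.8 and 77.4 CPM in EGFR-DN and at 50.9, 55.7 and 51.0 CPM in EGFR-WT, so only EGFR-DN replicate 3 left the common range. Its log2 fold change was 0.21 (SE 0.19, edgeR adjusted p = 0.720), and −0.01 (SE 0.07, interval −0.18 to 0.17) without that library. Dnmt3b varied least of the 8 genes over the other 5 libraries, with a coefficient of variation of 3.76%, where the 8427 genes of at least 20 CPM had a median of 6.74%.

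The TET genes had the largest log2 fold changes of the 8 genes with all 6 libraries. Without EGFR-DN replicate 3 that order did not hold, since Dnmt1 (0.19) then exceeded Tet1 (0.17). Tet1 was at 66.5, 59.5 and 201 CPM in EGFR-DN and at 59.1, 46.9 and 61.2 CPM in EGFR-WT. The high mean of EGFR-DN came from replicate 3, and replicate 2 lay inside the EGFR-WT range. The log2 fold change was 0.97 (SE 0.47, edgeR adjusted p = 0.690), and 0.17 (SE 0.12) without replicate 3.

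Tet2, whose loss expands stem cells in mice, was at 33.8, 37.5 and 91.3 CPM in EGFR-DN and at 30.6, 30.9 and 28.4 CPM in EGFR-WT. Each EGFR-DN library lay above each EGFR-WT library. The log2 fold change was 0.85 (SE 0.38, edgeR adjusted p = 0.690) and did not pass. Without EGFR-DN replicate 3 it was 0.25 (SE 0.09, edgeR adjusted p = 0.295, unadjusted p = 0.0257).

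Tet3 was at 85.4, 79.5 and 235 CPM in EGFR-DN and at 65.9, 70.9 and 75.4 CPM in EGFR-WT, again with no overlap. The log2 fold change was 0.91 (SE 0.42, edgeR adjusted p = 0.690), and 0.22 (SE 0.08, adjusted p = 0.286, unadjusted p = 0.0232) without replicate 3. The unadjusted 95% interval narrowed from −0.07 to 1.90 with all libraries to 0.04 to 0.40 without that one.

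The glycosylase gene Tdg was the one member lowest in EGFR-DN replicate 3, at 54.0, 45.0 and 41.4 CPM in EGFR-DN and 44.5, 43.9 and 48.3 CPM in EGFR-WT. The EGFR-WT range lay inside that of EGFR-DN. The difference was 0.04 in log2 (SE 0.15, adjusted p = 0.919 by edgeR), with an unadjusted 95% interval from −0.32 to 0.40, and 0.12 (SE 0.10) without EGFR-DN replicate 3. The chromatin gene Asxl1 was at 101.3, 94.1 and 153 CPM in EGFR-DN and 81.6, 87.0 and 91.3 CPM in EGFR-WT. Its groups did not overlap, but the difference of 0.42 in log2 (SE 0.21, adjusted p = 0.690 by edgeR) did not pass. Without EGFR-DN replicate 3 it was 0.17 (SE 0.07, adjusted p = 0.354, unadjusted p = 0.0449).

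**Figure D2:**
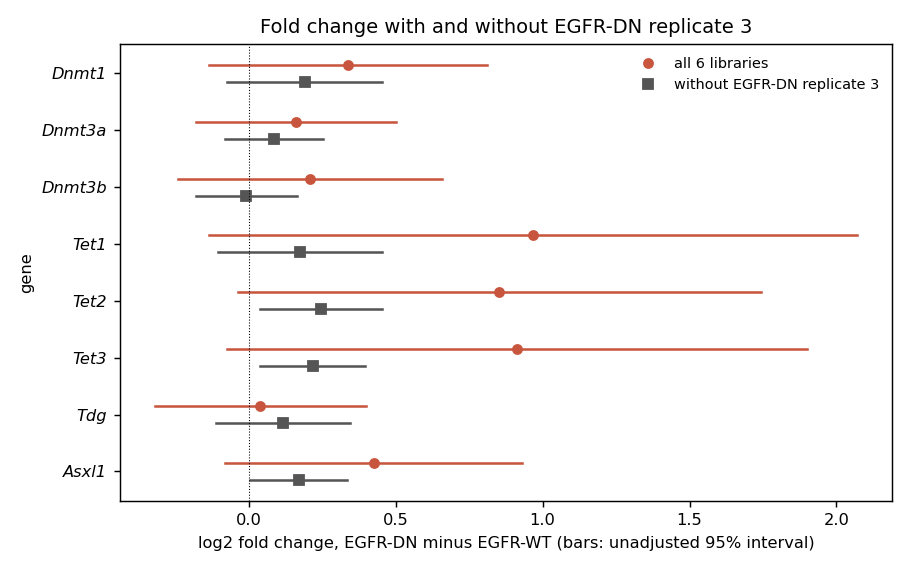
Log2 fold change of EGFR-DN minus EGFR-WT for each gene, with all 6 libraries (red circles) and without EGFR-DN replicate 3 (grey squares); bars are unadjusted 95% intervals. The TET intervals reach up to 2.07 with all libraries and at most 0.45 without that one.

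Thus 3 of the 8 genes, Tet2, Tet3 and Asxl1, had every EGFR-DN library above every EGFR-WT library, where 9.21% of all tested genes did so. With EGFR-DN replicate 3 left out these 3 necessarily remained so, and no other member joined them, beside 16.3% of all tested genes. These 3 also had an unadjusted p under 0.05 in that comparison, as did 13.6% of all genes tested there, while 0.286% passed the adjusted threshold and no member did. Markers of multipotent progenitors were higher in EGFR-DN replicates 1 and 2, but their sum was within the EGFR-WT range in replicate 3. The summed level of Cd34, Flt3, Cd48, Satb1 and Dntt was 1560 and 1223 CPM in EGFR-DN replicates 1 and 2, 751 in replicate 3 and 673 to 832 CPM in EGFR-WT. In replicate 3 Flt3 (169 CPM) and Satb1 (78.8 CPM) exceeded each EGFR-WT library. Cd48 (36.1 CPM) and Dntt (88.6 CPM) were below each, and Cd34 lay within their range. Without replicate 3 DESeq2 called all 5, where it called 4.96% of all genes, and edgeR called Satb1 (edgeR adjusted p = 0.0441). DESeq2 with all libraries also called Satb1 (DESeq2 adjusted p = 0.0466). The 9 neutrophil markers summed to 896 to 1434 CPM in EGFR-DN and to 403 to 584 CPM in EGFR-WT, most of it Mpo, which progenitors also express (653, 648 and 1261 CPM in EGFR-DN, 262, 429 and 328 CPM in EGFR-WT). The granule gene Ctsg was at 122, 111.8 and 15.6 CPM in EGFR-DN and 34.7, 52.5 and 40.3 CPM in EGFR-WT. Its log2 fold change was 0.97, and 1.46 without replicate 3, where edgeR called it (edgeR adjusted p = 0.0388) and 0.286% of all genes. Mpo, at 1.33 and 0.93, passed by DESeq2 with all libraries (DESeq2 adjusted p = 0.0325), where 0.432% of all genes did. Of the 8 neutrophil markers tested, DESeq2 called 5 without replicate 3. S100a8, S100a9 and Ngp, neutrophil genes of more mature cells, were low, with at most 3.91 CPM in a library. Without replicate 3 DESeq2 called them higher in EGFR-DN, where it called 4.96% of all genes (DESeq2 adjusted p = 0.00178, 0.00354 and 1.07e-05). Their log2 fold changes by edgeR were 1.92, 2.22 and 3.36 without replicate 3, and 1.67, 1.79 and 2.84 with all libraries. By edgeR without replicate 3 none of these 3 genes passed (adjusted p = 0.109, 0.142 and 0.0858), nor by DESeq2 with all libraries (adjusted p = 0.140, 0.421 and 0.164). Prtn3 was at 0.03, and at 0.20 without replicate 3. The 7 monocyte markers summed to 31.6 to 80.4 CPM in EGFR-DN and 28.4 to 34.8 CPM in EGFR-WT, those of T and NK cells to 171 to 263 and 140 to 167 CPM, and those of B cells to 44.5 to 62.5 and 34.9 to 44.1 CPM. All 6 monocyte markers tested had a log2 fold change above 0, with a median of 1.14, and 1.39 without replicate 3. Without that library edgeR called 1 of them (F13a1, edgeR adjusted p = 0.0441) and DESeq2 called 5. With all libraries neither called any. Most of the T and NK sum was Nkg7 (226, 208 and 150 CPM in EGFR-DN, 98.9, 145 and 130 CPM in EGFR-WT). Of the 5 T and NK markers tested, 3 had a log2 fold change above 0, and DESeq2 called 2 without replicate 3 (Lck and Nkg7, both higher). The NK marker Klrb1c was lower in each EGFR-DN library (4.78, 8.14 and 6.54 CPM) than in EGFR-WT (26.4, 9.99 and 12.5 CPM), at −1.33, and −1.34 without replicate 3. The 10 stem cell markers summed to 1290, 1538 and 3670 CPM in EGFR-DN replicates 1 to 3 and 1705 to 2027 CPM in EGFR-WT, so without replicate 3 they were below each EGFR-WT library. Their median log2 fold change was −0.21 with all libraries and −0.66 without replicate 3, where 0 of 10 were above 0 and DESeq2 called 3 (Hlf, Fgd5 and Ctnnal1). The summed levels of erythroid (355 to 601 and 257 to 394 CPM), megakaryocyte (413 to 697 and 415 to 807 CPM) and stromal markers (82.0 to 172 and 68.7 to 82.7 CPM) overlapped between the groups with all libraries. Most of the stromal sum was Pecam1, whose EGFR-DN libraries were all higher, as in 9.21% of all tested genes. Its log2 fold change was 0.87, and 0.44 without replicate 3. Emcn was at −0.39, and −0.92 without replicate 3. With that library left out DESeq2 called Pecam1 higher and Emcn lower (DESeq2 adjusted p = 0.000910 and 0.00247). No list was at 0 in every library. The part of these cells in the members' levels was not tested.

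EGFR-DN replicate 3 had the highest level of each TET gene. Against the mean of the other 5 libraries it held 3.43 times as much Tet1, 3.11 times as much Tet3 and 2.83 times as much Tet2. Asxl1 was 1.68 times as high there, Dnmt3b 1.47 times, Dnmt1 1.42 times and Dnmt3a 1.19 times, and Tdg was at 0.879 times. The order of Tet1, Tet3, Tet2 and Asxl1 followed transcript length, with 14369 bases for Tet1, 10904 for Tet3, 9179 for Tet2 and 6981 for Asxl1. Dnmt3a did not, since its longest transcript has 9685 bases, nor did Dnmt3b, which stood above the longer Dnmt1 (4320 and 5870 bases). Tdg, the lowest, is also the shortest, with 3502 bases.

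Transcript length moved with this library over all genes as well. The 17029 tested genes with a known length (88.2%) were divided into 20 equal bins. The median log2 difference between EGFR-DN replicate 3 and the other libraries was −0.39 in the shortest bin, of 38 to 423 bases, and 0.86 in the longest, of at least 7633 bases. Tet1 (1.78), Tet3 (1.64) and Tet2 (1.49) exceeded the upper quartile of the longest bin, which was 1.33, while Dnmt3a (0.25) lay below its lower quartile of 0.30. Dnmt1, Dnmt3b, Asxl1 and Tdg lay between the quartiles of their own bins. Without EGFR-DN replicate 3 the longest bin had a median log2 fold change between groups of 0.00 and the shortest of 0.03. Among 5 wider bins, the longest, which held 6 of the 8 genes, had a median fold change between groups of 0.20 with all libraries and −0.01 without replicate 3. The part of length, or of the rRNA-like counts, in the TET levels was not tested.

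**Figure D3:**
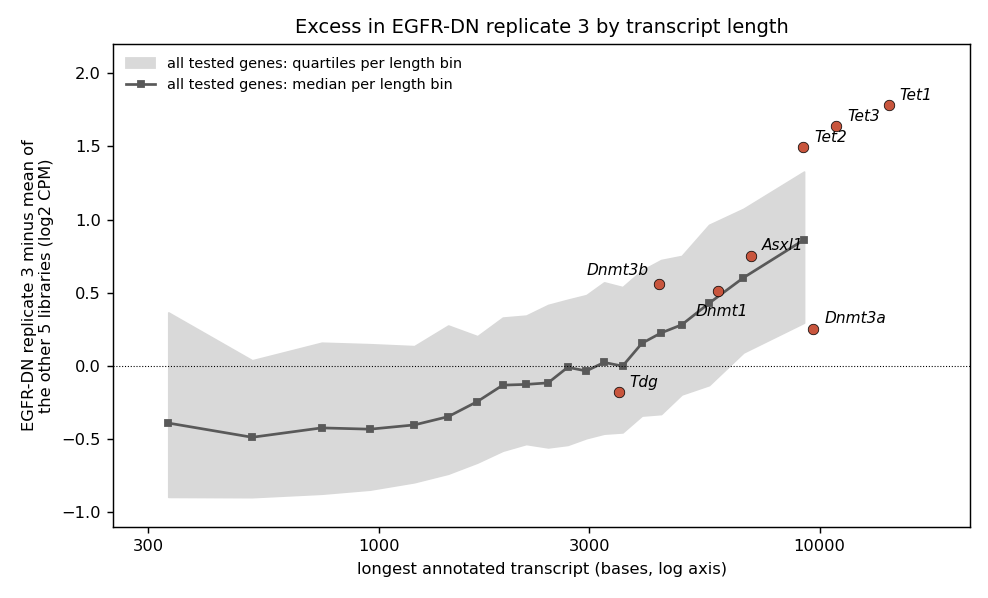
Difference in log2 CPM between EGFR-DN replicate 3 and the mean of the other 5 libraries against the longest annotated transcript (log axis); grey squares and band are the median and quartiles of all tested genes in 20 length bins, red points the 8 genes. The 3 TET genes lie above the band and Dnmt3a below it.

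Proportions within a family need no scaling between libraries. Tet3 took 44.8% to 49.5% of TET counts per kilobase, Tet1 24.9% to 30.8% and Tet2 21.7% to 26.3% over the 6 libraries. The mean shares were 28.7 ± 2.06% in EGFR-DN and 28.4 ± 3.07% in EGFR-WT for Tet1, 23.7 ± 2.34% and 24.01 ± 2.06% for Tet2, and 47.6 ± 0.800% and 47.6 ± 2.47% for Tet3. Each TET share therefore differed between groups by less than the spread between replicates, EGFR-DN replicate 3 included. Dnmt1 made up 67.9% to 69.7% of DNMT counts per kilobase in EGFR-DN and 63.9% to 67.9% in EGFR-WT, with group means of 68.7 ± 0.940% and 66.3 ± 2.12%. The ratio of summed TET to summed DNMT counts per kilobase was 0.212 and 0.226 in EGFR-DN replicates 1 and 2, within the EGFR-WT range of 0.186 to 0.229, and 0.478 in replicate 3.

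**Figure D4:**
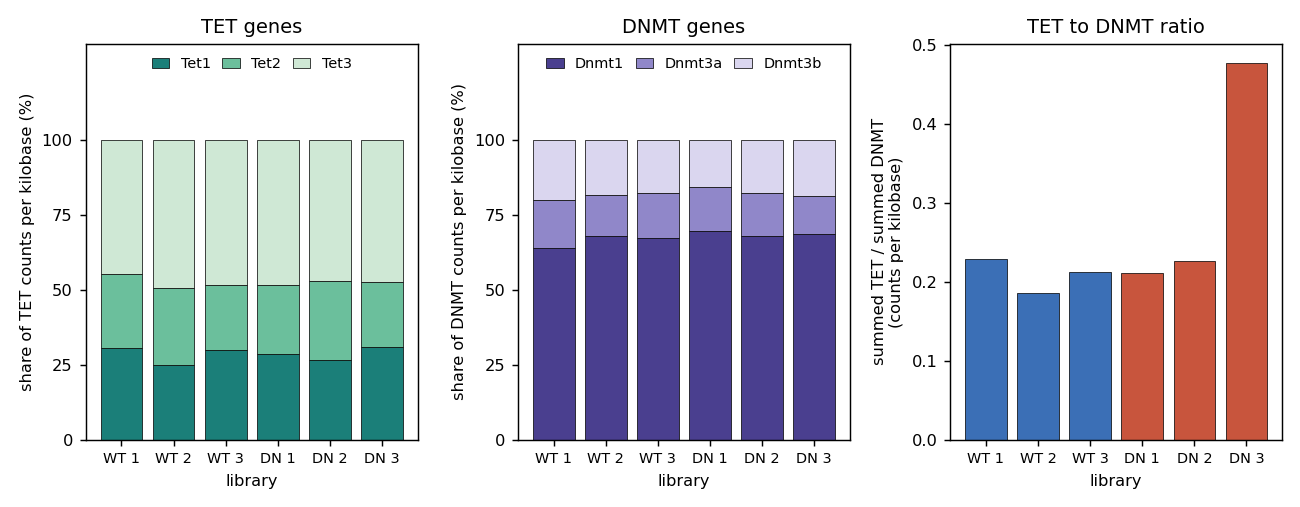
Share of each gene in the TET and DNMT counts per kilobase of each library (left and middle, stacked bars) and ratio of summed TET to summed DNMT counts per kilobase (right; blue EGFR-WT, red EGFR-DN). The TET shares stay within 44.8% to 49.5% for Tet3 in every library, while the ratio reaches 0.478 in EGFR-DN replicate 3.

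Across the 6 libraries Tet1, Tet2 and Tet3 correlated with one another at Pearson r = 0.96 to 0.98 in log2 CPM, and Tet3 with Asxl1 at r = 0.99. Over the 5 libraries without EGFR-DN replicate 3 the TET pairs were at 0.21 (Tet1 and Tet2), 0.56 (Tet1 and Tet3) and 0.55 (Tet2 and Tet3), whereas Tet3 and Asxl1 kept 0.997. Dnmt3a and Tdg, at 0.04 over 6 libraries, were at 0.98 over these 5. All points share the library scaling, and so few libraries make such values descriptions only.

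Among 11146 other genes of at least 4 CPM, those most like each member over the 6 libraries were named. Tet1 was nearest to Pag1, Ctxn1 and Nf1 (r = 0.998 to 0.999), Tet2 to Csnk1g1, Sh3bp1 and Mapk3 (r = 0.997 to 0.998) and Tet3 to Ctdsp2-ps, Per2 and Tecr (r = 0.999). These values say little about single genes, since 1309 genes for Tet1, 1322 for Tet2, 1614 for Tet3, 1258 for Dnmt3b and 1120 for Asxl1 exceeded r = 0.95. Dnmt1 was nearest to Sbk1, Trim25 and Nt5dc2 (r = 0.995 to 0.997) and Dnmt3a to Pcnt, Ankrd50 and Dlgap5 (r = 0.988 to 0.992), with 148 and 71 genes above 0.95. Dnmt3b lay nearest to Ppm1e, Hk1 and Sec24c (r = 0.999), and Asxl1 to Zfp646, Ikzf1 and Inpp5d (r = 0.998 to 0.999). Tdg stood most alone, with 6 genes above 0.95, the nearest being Tecpr1 (0.989), Gstcd (0.985) and Hells (0.969).

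The rest of the pathway was described through 10 further gene lists, of which 127 genes besides the members were tested. None passed by edgeR with all libraries, and 3 had an unadjusted p under 0.05, where 6.69% of all tested genes did. These 3 were all lower in EGFR-DN and all imprinted genes. Without EGFR-DN replicate 3 edgeR again called none, with 21 at an unadjusted p under 0.05, where 13.6% of all genes tested there were.

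Of 17 partners and homologues of the methyltransferases 15 were tested, with a median log2 fold change of 0.19, and 0.05 without EGFR-DN replicate 3. The closest to the threshold was Uhrf2, a relative of the DNMT1 recruiter UHRF1, with 83.2 ± 3.23 CPM in EGFR-WT and 64.9 ± 12.9 CPM in EGFR-DN (−0.36, SE 0.18, and −0.21 without replicate 3). Uhrf1 itself had 110.7 ± 9.60 CPM in EGFR-WT and 130.2 ± 11.8 CPM in EGFR-DN (0.23, SE 0.15, and 0.16 without replicate 3). The histone H3 lysine 36 methyltransferase genes Nsd1 (0.60, SE 0.30) and Setd2 (0.53, SE 0.31), whose marks attract DNMT3 proteins, did not pass and were at 0.16 and 0.07 without EGFR-DN replicate 3. The germ cell cofactor gene Dnmt3l had at most 9 counts in a library and was not tested.

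Of 20 genes that recruit, modify or supply the TET enzymes 17 were tested, with a median log2 fold change of −0.11, and −0.02 without EGFR-DN replicate 3. The isocitrate dehydrogenase genes Idh1 (−0.11, SE 0.17, and 0.01 without replicate 3) and Idh2 (−0.06, SE 0.24, and 0.15), which make the TET cofactor 2-oxoglutarate, had intervals that include 0. D2hgdh, which removes the TET inhibitor D-2-hydroxyglutarate, was at 42.4 ± 12.2 CPM in EGFR-DN and 31.2 ± 2.22 CPM in EGFR-WT (0.44, SE 0.22, and 0.18 without replicate 3). The list of base excision repair genes, which also held GADD45 genes and the deaminase gene Apobec1, had 17 genes tested. Their median was 0.04, and 0.07 without replicate 3. The glycosylase gene Smug1 was at 11.4, 11.2 and 12.7 CPM in EGFR-DN and at 14.7, 13.9 and 14.99 CPM in EGFR-WT (−0.30, SE 0.15, edgeR adjusted p = 0.690, and −0.36 without replicate 3), so the groups did not overlap, as in 8.72% of all genes in that direction. The list of 9 genes of the methyl-CpG-binding domain family and of zinc finger readers had a median of 0.29 with all libraries and 0.02 without EGFR-DN replicate 3. Its smallest p-values were those of Mbd6 (0.78, SE 0.41) and Mbd5 (0.93, SE 0.51), which were at 0.09 and 0.02 without that library. Both proteins belong to the family by sequence but are known to associate with the BAP1 complex and not to bind methylated DNA.

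The 14 genes of the methyl donor cycle had a median of −0.10, and −0.02 without replicate 3. Mat2a, which makes the methyl donor S-adenosylmethionine, was lower by DESeq2 when EGFR-DN replicate 3 was left out (−0.26, SE 0.07, DESeq2 adjusted p = 0.0152). By edgeR it was at −0.26 without that library (edgeR adjusted p = 0.197) and at −0.20 with all libraries, and did not pass. The 8 ASXL and BAP1 complex genes had a median of 0.11, and 0.01 without that library. Among them Hcfc1, a BAP1 cofactor gene, was at 213, 190 and 571 CPM in EGFR-DN and 161, 183 and 194 CPM in EGFR-WT (0.86, SE 0.43, and 0.16 without replicate 3), and Bap1 was at −0.21 (SE 0.16, and −0.11 without it). The 11 Polycomb repressive complex 2 genes had a median of −0.19, and −0.06 without replicate 3, and the 14 S phase genes 0.08 and 0.18.

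Germline and imprinted genes are known to depend on DNA methylation. Of 14 germline genes silenced by promoter methylation in body cells, 4 were tested, with at most 4.55 CPM in a library (Ddx4). The other 10 had at most 5 counts in any library, except Slc25a31, with 38 counts in EGFR-DN replicate 3 and 0 elsewhere. The 18 imprinted genes tested had a median of −0.31, and −0.46 without EGFR-DN replicate 3, with 6 above 0. Ndn, an imprinted gene known to favour stem cell quiescence, was at 11.2, 15.9 and 10.0 CPM in EGFR-DN and at 39.2, 26.4 and 22.9 CPM in EGFR-WT. It did not pass by edgeR (log2 fold change −1.25, SE 0.27, adjusted p = 0.690, and −1.13 without replicate 3) but was lower by DESeq2 (adjusted p = 0.0184, and 0.000200 without replicate 3). Grb10, an imprinted adaptor gene, was lower by DESeq2 without that library (−0.60, SE 0.12, adjusted p = 4.38e-05). By edgeR it was at −0.60 without that library (edgeR adjusted p = 0.0858) and at −0.25 with all libraries, and did not pass. Igf2 (0.322 ± 0.181 CPM in EGFR-DN, 0.949 ± 0.364 in EGFR-WT) and Phlda2 (3.71 ± 0.509 and 5.83 ± 1.43 CPM) did not pass by edgeR, with unadjusted p = 0.0241 and 0.0493. Their log2 fold changes were −1.60 and −0.65, and −2.03 and −0.65 without EGFR-DN replicate 3. DNA methylation itself was not measured.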

How the data were processed

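RNA was measured in 6 libraries. The kits were SMART-Seq V4, with oligo(dT) priming of 10 ng RNA, and Nextera XT, which marks no strand, with single reads of 75 bases, per the labels' protocols. The values the authors deposited are estimated counts by gene symbol without scaling, and 79.4% of them were whole numbers. Build mm39, DRAGEN, DESeq2 1.40.2 and R 4.3.1 are named in the submitters' processing notes. The counter, the annotation and whether strand was used are not stated in the sources at hand. Estimated counts of Dnmt3b and Tdg were not whole in 6 libraries, of Tet1 in 4 and of Dnmt3a in 1, so reads shared with another gene or copy may be included. No library duplicated another (smallest chi-square per degree of freedom 16.3).

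Counts were rounded, filtered with filterByExpr and scaled by the trimmed mean of M-values (TMM). Groups follow the labels and were compared with edgeR 4.0.16 in R 4.3.3 (quasi-likelihood test). Each SE was computed as |log2 fold change| over the root of the F statistic, and intervals use the degrees of freedom of the fit. The floor of 3 counts covers counting error only. The difference of EGFR-DN replicate 3 from the others used log2(CPM + 0.5). DESeq2 1.42.0 and limma 3.58.1 gave alternatives, and scripts were tested on simulated data. Transcript lengths came from GENCODE vM21 (GRCm38, not the build of the files) and promoters from RefSeq, by symbol.

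Members and lists were chosen with earlier results of these data known. Beside the members and Egfr, genes were named as the 3 of smallest p in each list, the 3 most like each member, or for their role as a partner. Outside that rule, Idh1, Idh2, Mat2a, Grb10, Slc25a31 and single marker genes were chosen after their values were seen. The labels do not say that replicate numbers pair libraries, so no pairing was used in the main fit. The 9 cell type lists served as checks.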

Additional observations from a re-analysis of the deposited data

How the results depend on the processing

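No member passed the threshold under any of 18 alternatives, and over these the lowest adjusted p was 0.197 (Tet3). The log2 fold change ran from 0.17 to 1.25 for Tet1, 0.25 to 1.10 for Tet2, 0.22 to 1.16 for Tet3, 0.18 to 0.43 for Dnmt1 and 0.17 to 0.54 for Asxl1, each lowest without EGFR-DN replicate 3 except Dnmt1. Leaving out 1 library gave −0.0082 to 0.3041 for Dnmt3b, below 0 without EGFR-DN replicate 3 (−0.0068 by DESeq2), and −0.0802 to 0.1155 for Tdg, below 0 without EGFR-DN replicate 1. Tdg turned to −0.0641 with library size alone, and Dnmt3a to −0.0604 with a transcript length offset. That offset, chosen after the data were seen, gave 0.45, 0.51 and 0.50 for Tet1, Tet2 and Tet3 over 17029 genes. The cause of these turns was not tested.

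Over all genes the count called was 1. It was 99 by DESeq2, 844 by DESeq2 without EGFR-DN replicate 3, 188 by limma-voom with library quality weights, and 0 by limma-voom (1187 at an unadjusted p under 0.05) and with the length offset (1233). Leaving out 1 library gave 0 to 57, with 57 without EGFR-DN replicate 3 and 0 without any one EGFR-WT replicate. Of pathway list genes, none in the edgeR fits, DESeq2 called 1 (Ndn) and, without EGFR-DN replicate 3, 3 (Ndn, Grb10 and Mat2a). Library size alone moved the median of all genes from 0.01 to −0.10, and that of the members from 0.38 to 0.24. With the replicate number as a block (replicate block), 1 gene and no member was called. Deviations of same-numbered libraries correlated at −0.02, 0.05 and 0.06, and 2 of 3 EGFR-DN libraries correlated best with their own number. Within-family shares moved with the unit: Dnmt3a was 23.6% of EGFR-WT DNMT counts and 15.02% per kilobase.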
